A study of Mus musculus with 24 samples.

Results

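Chromatin accessibility was compared between bone marrow derived macrophages of C57BL6/J mice given 2 doses of lipopolysaccharide (LPSx2) and macrophages of the same strain kept in media. The comparison was made up of every library labelled with strain C57BL6/J and either of these treatments, 8 of the 24 libraries of the series (4 media, 4 LPSx2). The marrow came from male C57BL6/J mice at postnatal day 28 and was cultured for 7 days before treatment. LPSx2 cultures received 100 ng/ml LPS for 4 h, were washed, rested for 20 h in base media, and received 100 ng/ml LPS for a further 24 h. Media cultures went through the same schedule with media alone. The LPSx1 libraries of C57BL6/J, given media first and a single 24 h dose of 100 ng/ml LPS, and the media and LPSx2 libraries of BTBR (BTBR T+ Itpr3tf/J) male mice of the same age were used where stated. Each reaction held 50000 cells, the biological replicate numbers (1, 4, 6 and 7 for C57BL6/J) were taken to name animals, and media, LPSx1 and LPSx2 libraries of an animal were sequenced in 1 lane.

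LPS, a glycolipid from the surface of Gram-negative bacteria, is sensed through Tlr4 and its partners Md-2 (Ly96) and Cd14, and signals through MyD88 and Trif to NF-kB, AP-1 and interferon regulatory factors. Macrophages that meet LPS again after an earlier dose are known to answer with less of some inflammatory transcripts and undiminished or greater amounts of others, a state called endotoxin tolerance. ATAC-seq inserts sequencing adapters into accessible DNA with the transposase Tn5, and in macrophages the distal sites found this way are known to carry motifs of PU.1, C/EBP and AP-1 proteins.

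The deposited lists held 17041, 38751, 299 and 22393 peaks of 201 bp in the media libraries of animals 1, 4, 6 and 7. The LPSx2 lists of the same animals held 58126, 42987, 1879 and 43321 peaks. Every LPSx2 list was longer than the media list of its animal, by 1.38 on average on the log2 scale (two-sided exact permutation test, p = 0.457, n = 4 and 4; p = 0.125, the smallest that 4 pairs can give, with treatments exchanged within animals). Read depth was not given, so peak number could not be set against depth. Both lists of animal 6 fell short of 5000 peaks and were left out, so 6 libraries remained, of 22 in the series. Overlapping peaks were collapsed to the highest scoring one, since in animals 1 and 4 between 66.7% and 85.2% of the peaks of a media or LPSx2 list overlapped another, against at most 0.0982% for animal 7. All lists of a sequencing lane, which held 1 animal of each strain, were then shortened to 1 length by score, to 11349 peaks in the lane of animal 1, 22037 in that of animal 4 and 13957 in that of animal 7. After this step a gain of peaks at some sites had to be matched by a loss elsewhere, so values below describe where the strongest peaks lay and not how many there were. For animals 1 and 4 the media list set the length and entered whole, while in the lane of animal 7 a BTBR list set it. Animal 7 also differed in the number of additional PCR cycles, 13 for media and 12 for LPSx2, against 6 and 6 for animal 1 and 7 and 6 for animal 4. The part of these differences in the results was not tested.

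Lists of equal length were more alike by treatment than by animal. Libraries given the same treatment shared 50.2% to 65.6% of the union of their peaks, whereas the media and LPSx2 libraries of 1 animal shared 41.1% to 45.3% and libraries differing in both shared 33.1% to 46.1%. These are bulk libraries, in which a change in the mixture of cells and a change within each cell cannot be told apart.

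The 6 lists covered 31015 regions. Of these, 1035 regions (3.34% of those examined) were present in all 3 LPSx2 lists and in no media list and are called gained, 716 (2.31%) were present in all 3 media lists and in no LPSx2 list and are called lost, and 4985 were present in all 6. The 201 bp sequences of distal gained and lost regions among those with the highest mean rank in the lists that held them are shown first, as examples of the sites counted. All are from mm10 and given on the plus strand. Capitals mark matches to the motifs described below on either strand, and positions of matches are counted from 1 at the left end.

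The highest ranked gained region lay at chr1:167242120-167242320 in an intron of Uck2, a uridine-cytidine kinase gene, 43100 bp from the nearest protein-coding start site. It stood above 92.3%, 97.3% and 97.3% of the peaks in the LPSx2 lists of animals 1, 4 and 7, was in 4 of 4 C57BL6/J LPSx1 lists, and held none of the motifs searched. The region nearest Tgds, at chr14:118109814-118110014, had an AP-1 match at position 99, next to the centre of the peak. Regions in introns of Plekha7 (chr7:116231325-116231525) and Arl15 (chr13:114078024-114078224) and an intergenic region 48818 bp from Hspa13 (chr16:75717873-75718073) completed the set. The Plekha7 and Hspa13 regions were also in 4 and 3 of 4 BTBR media lists, and the other 3 regions in 0. The Arl15 region had a PU.1 match at position 119, and the Hspa13 region a C/EBP match at position 36 and an AP-1 match at position 129.
Uck2 gained region: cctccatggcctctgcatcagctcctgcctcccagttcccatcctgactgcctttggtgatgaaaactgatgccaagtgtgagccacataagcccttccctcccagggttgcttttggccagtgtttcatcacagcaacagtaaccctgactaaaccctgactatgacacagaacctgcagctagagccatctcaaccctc
Tgds gained region: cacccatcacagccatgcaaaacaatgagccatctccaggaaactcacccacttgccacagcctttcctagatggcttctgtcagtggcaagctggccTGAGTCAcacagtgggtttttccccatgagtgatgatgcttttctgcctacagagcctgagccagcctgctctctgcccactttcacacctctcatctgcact
Plekha7 gained region: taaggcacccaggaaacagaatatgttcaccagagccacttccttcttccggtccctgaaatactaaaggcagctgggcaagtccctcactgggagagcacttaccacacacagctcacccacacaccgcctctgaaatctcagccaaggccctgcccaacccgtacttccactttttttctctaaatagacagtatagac
Arl15 gained region: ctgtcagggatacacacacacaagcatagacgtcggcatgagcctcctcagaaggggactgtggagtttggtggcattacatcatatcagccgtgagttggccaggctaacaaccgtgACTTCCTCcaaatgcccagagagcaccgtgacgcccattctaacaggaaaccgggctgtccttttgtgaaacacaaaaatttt
Hspa13 gained region: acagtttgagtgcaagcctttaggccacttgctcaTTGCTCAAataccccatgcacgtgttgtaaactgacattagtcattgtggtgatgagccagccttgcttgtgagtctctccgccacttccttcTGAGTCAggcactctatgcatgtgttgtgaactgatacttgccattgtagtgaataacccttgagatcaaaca

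None of the 4 lost distal regions shown carried an AP-1 match. An intergenic region 54116 bp from 1700056E22Rik (chr1:183979782-183979982) held a PU.1 match at position 68. A region 44424 bp from Tex44 (chr1:86470653-86470853) held 1 antioxidant response element match at position 170. Regions near Tmem178 (chr17:80933566-80933766) and in an intron of Acoxl (chr2:128008866-128009066) held no match. The Tmem178 and 1700056E22Rik regions were in 4 and 3 of 4 BTBR LPSx2 lists, and the Tex44 and Acoxl regions in 1 and 0.
Tex44 lost region: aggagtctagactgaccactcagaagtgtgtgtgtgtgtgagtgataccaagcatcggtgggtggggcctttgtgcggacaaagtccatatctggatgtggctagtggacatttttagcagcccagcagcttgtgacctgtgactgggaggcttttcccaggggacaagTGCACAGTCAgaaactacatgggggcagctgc
Tmem178 lost region: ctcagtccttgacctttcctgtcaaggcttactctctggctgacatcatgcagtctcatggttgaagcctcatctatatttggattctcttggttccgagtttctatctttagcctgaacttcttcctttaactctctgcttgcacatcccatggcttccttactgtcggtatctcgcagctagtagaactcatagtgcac
Acoxl lost region: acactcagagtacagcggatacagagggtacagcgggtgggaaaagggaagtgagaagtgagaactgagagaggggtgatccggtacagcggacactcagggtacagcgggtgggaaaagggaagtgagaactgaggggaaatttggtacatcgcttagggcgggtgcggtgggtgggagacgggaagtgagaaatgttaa
1700056E22Rik lost region: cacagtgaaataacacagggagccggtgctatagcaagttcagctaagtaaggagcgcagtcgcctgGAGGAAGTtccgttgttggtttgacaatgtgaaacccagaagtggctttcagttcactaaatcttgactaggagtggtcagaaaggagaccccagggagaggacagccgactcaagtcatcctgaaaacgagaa

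Of the 9 genes nearest to 3 or more gained regions within 100 kb, Pde4b is shown because its peak number is described below. Pde4b encodes a cyclic AMP phosphodiesterase, an enzyme that breaks down a second messenger known to restrain inflammatory output in macrophages. The first region (chr4:102515153-102515353, intron) had a PU.1 match at position 56 and an AP-1 match at position 174. The next (chr4:102584748-102584948, intron, 2710 bp from a start site) had C/EBP matches at positions 29, 98 and 191 and a PU.1-IRF composite match at position 162. The last (chr4:102608140-102608340, intergenic) had a C/EBP match at position 181. In the LPSx2 lists of animals 1, 4 and 7 they stood above 92.4%, 88.2% and 85.7%, above 88.7%, 89.7% and 84.5%, and above 91.7%, 96.4% and 55.0% of peaks. They were in 4, 4 and 3 of the 4 C57BL6/J LPSx1 lists, and in 2, 0 and 1 of the 4 BTBR media lists.
Pde4b intron region A: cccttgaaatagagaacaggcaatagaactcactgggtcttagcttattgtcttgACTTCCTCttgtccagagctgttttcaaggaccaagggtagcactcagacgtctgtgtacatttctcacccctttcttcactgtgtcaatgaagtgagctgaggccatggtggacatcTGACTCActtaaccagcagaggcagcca
Pde4b intron region B: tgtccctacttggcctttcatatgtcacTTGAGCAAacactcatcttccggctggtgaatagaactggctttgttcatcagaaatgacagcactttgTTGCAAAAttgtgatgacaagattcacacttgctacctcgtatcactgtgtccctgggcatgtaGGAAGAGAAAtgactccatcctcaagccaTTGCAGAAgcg
Pde4b flanking region: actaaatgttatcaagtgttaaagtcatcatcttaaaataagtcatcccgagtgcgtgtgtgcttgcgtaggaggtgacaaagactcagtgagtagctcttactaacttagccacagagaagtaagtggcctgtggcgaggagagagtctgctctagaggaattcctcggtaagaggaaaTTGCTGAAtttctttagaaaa

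Gained regions lay far from genes' start sites and lost regions close to them. Only 3.19% of gained regions were within 1 kb of a protein-coding transcription start site, against 62.7% of lost regions, 61.2% of regions in all 6 lists and 36.6% of all 31015 regions. Introns held 59.4% of gained and 17.2% of lost regions, and intergenic sequence held 34.0% and 17.7%. The median distance to the nearest start site was 30247 bp for gained and 167 bp for lost regions. Distal gained regions had a GC content of 47.5%, distal lost regions 54.1% and all distal regions 49.0%.

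The media lists of animals 1 and 4 entered whole, while every LPSx2 list was shortened. Gained regions could therefore be regained below the score limit in the media list of animal 7 alone, which at full length held 159 of the 1035. Only 104 of the 716 lost regions (14.5%) were in no full-length LPSx2 list, and 72 were in all 3 of them. Most lost regions were therefore peaks present in at least 1 LPSx2 library at a score too low for the shortened list. In the left-out lists of animal 6, 45 of the 1877 collapsed LPSx2 peaks lay in gained regions and 0 in lost regions, while the 299 media peaks lay in 0 gained regions and 1 lost region. Of those 299 media peaks, 11.7% were within 1 kb of a start site and 2.27% of the distal ones held an AP-1 match, far from the values of any other C57BL6/J media library.

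The regions were then looked up in libraries whose detection of them did not decide the choice. Region borders, however, were drawn over the lists of all 22 kept libraries. With borders from the 6 C57BL6/J lists alone, 1046 regions were gained and 730 lost. Of the 1035 gained regions, 488 were in 4 of 4 C57BL6/J LPSx1 lists and 19 in none, of the 716 lost regions 6 were in all 4 and 311 in none, and of all 31015 regions 7264 were in all 4 and 8703 in none. The LPSx1 library of animal 6, an animal without a list among the 6, held 78.9% of gained, 21.6% of lost and 47.0% of all regions. The LPSx1 libraries of animals 1, 4 and 7 held 68.7%, 92.2% and 75.5% of gained regions, against 35.1%, 61.2% and 42.8% of all regions. In BTBR macrophages, 734 gained regions were in no media list, as were 9287 of all regions. Full detection in BTBR LPSx2 libraries was little more frequent among gained regions than among all, with 223 of 1035 and 5748 of 31015 in 4 of 4 lists. More BTBR LPSx2 than media lists held 846 gained regions (81.7%, against 24.3% of all regions), and more media than LPSx2 lists held 555 lost regions (77.5%, against 31.7% of all regions).

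**Figure D1:**
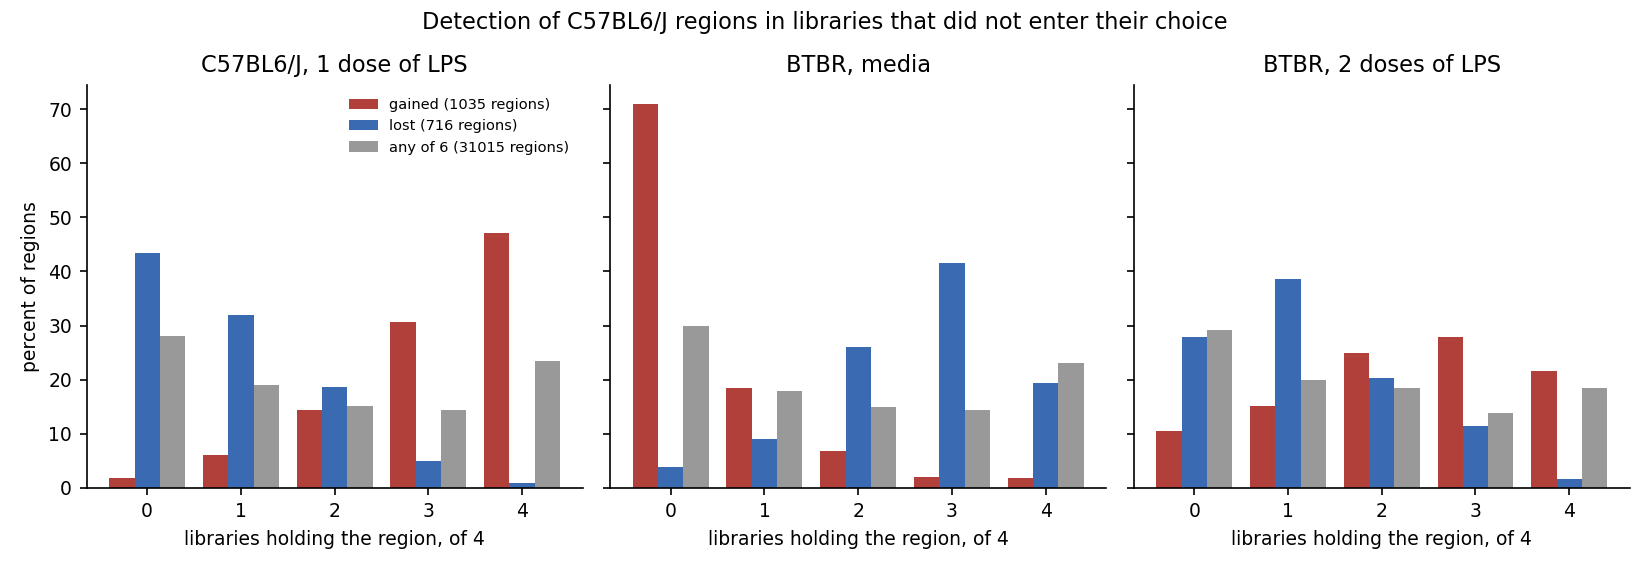
Percent of regions (y axis) found in 0 to 4 of 4 libraries (x axis) for gained regions, lost regions and all 31015 regions of the C57BL6/J comparison, in C57BL6/J LPSx1, BTBR media and BTBR LPSx2 libraries. Detection in these libraries did not decide the choice, but their lists helped to set region borders. Of 1035 gained regions, 488 were in all 4 C57BL6/J LPSx1 libraries and 734 in no BTBR media library.

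Distal gained regions were rich in AP-1 matches. AP-1, the family of Fos, Jun and Atf dimers, binds TGAGTCA, which was found on either strand in 40.4% of the 1002 distal gained regions, 14.2% of the 267 distal lost regions and 23.0% of the 19656 distal regions of the 6 lists. The C/EBP motif TTGCNNAA, bound by Cebpa and Cebpb, was found in 23.2%, 8.99% and 16.5%. The PU.1 motif GAGGAAGT, bound by the myeloid regulator Spi1, was slightly rarer in gained regions, at 10.2%, 13.9% and 12.4%. The PU.1-IRF composite motif, which shares its GGAA core with PU.1, was found in 2.79%, 10.9% and 5.95%, and the SP/KLF motif GGGGCGGGG in 0.2%, 7.12% and 1.62%. The NF-kB motif was found at similar shares in gained (5.59%) and lost (5.99%) regions, above the 3.79% of all distal regions. AP-1 and C/EBP matches fell in the same gained region in 73 cases, which was 18% of gained regions with AP-1 and below the 26.6% of gained regions without it. Over all distal regions of the 6 lists, C/EBP was also rarer with AP-1 (14.6%) than without (17.1%). No motif of the 13 searched was found in 29.3% of distal gained, 44.2% of distal lost and 40.9% of all distal regions.

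AP-1 matches were denser beside the peak centre than at the edges in distal gained regions and in distal regions of all 6 lists. The 469 matches in gained regions lay at a median distance of 34 bp. Of these, 45.4% were within 30 bp, against 47.3% of the 558 matches in regions of all 6 lists. Per 20 bp, there were 6.49 and 7.88 AP-1 matches per 100 gained regions on the left and right of the centre, and 1.3 and 2.69 in the outermost bins. Lost regions held 40 matches, at a median of 39.5 bp and with 42.5% within 30 bp. Of these, 3 and 8 lay in the bins left and right of the centre and 3 in each outermost bin, too few to describe their position. The share that evenly spread matches would give was not computed.

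**Figure D2:**
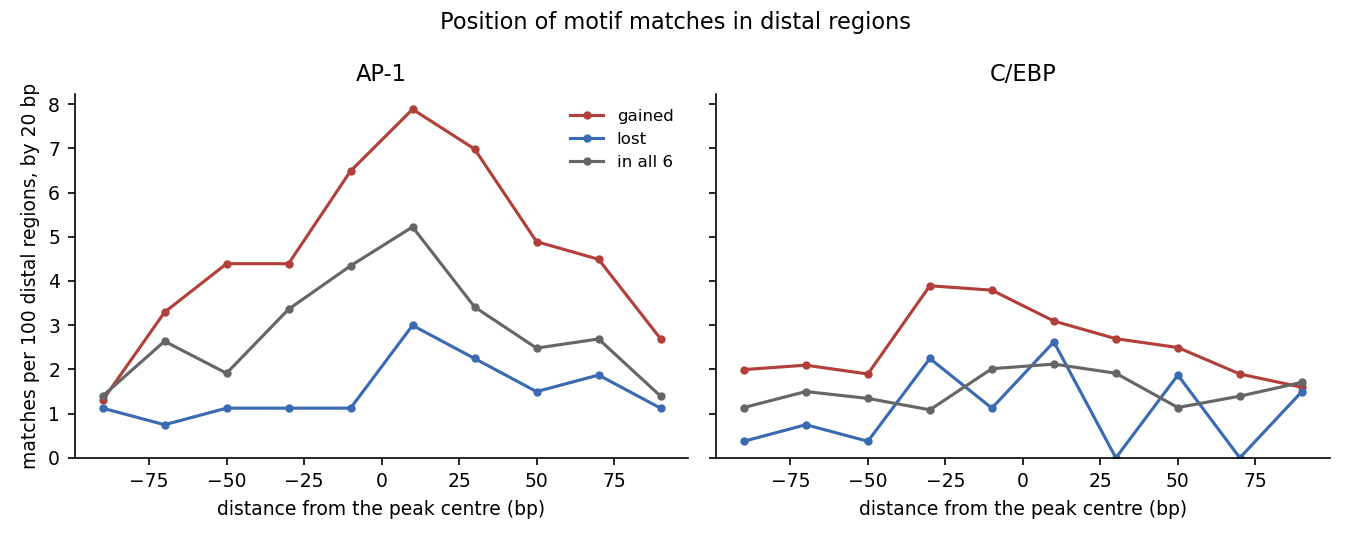
AP-1 (left) and C/EBP (right) matches per 100 distal regions in 20 bp bins (y axis) by distance from the peak centre in bp (x axis), for gained and lost regions and regions in all 6 lists. AP-1 matches in gained regions were densest beside the centre, at 7.88 per 100 regions, and sparsest at the edge, at 1.3.

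The same motifs separated whole lists of equal length. Of distal peaks in the media lists of animals 1, 4 and 7, 19.7%, 18.9% and 21.3% held an AP-1 match, and in the LPSx2 lists 28.6%, 26.1% and 28.6% did. All 3 LPSx2 libraries stood above all 3 media libraries, with means of 27.8% ± 1.46 (SD, n = 3) and 19.9% ± 1.21 (SD, n = 3), a difference of 7.81 points. The two-sided exact permutation test gave p = 0.1 (adjusted over 13 motifs, 0.26), the smallest p that 3 libraries against 3 can give. The same held for C/EBP, which went from 14.9%, 15.2% and 12.2% to 17.3%, 17.0% and 18.9% (14.1% ± 1.64 and 17.8% ± 1.04, SD, n = 3; exact permutation p = 0.1). Within the LPSx2 lists the AP-1 share was 29.9% in the highest of 3 equal rank groups, 28.4% in the middle and 25.6% in the lowest, and within the media lists 19.9%, 21.1% and 18.9%, so the LPSx2 lists were higher at each rank.

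Motifs bound by constitutive macrophage and promoter factors had lower shares of distal LPSx2 peaks, without overlap between the groups. PU.1 stood at 14.5% in each media list and at 12.5%, 11.9% and 13.5% in the LPSx2 lists of animals 1, 4 and 7 (14.5% ± 0.0378 and 12.6% ± 0.795, SD, n = 3; exact permutation p = 0.1). Counted over all peaks and not distal peaks alone, the PU.1 share was instead 0.841 points higher with LPSx2 (exact permutation p = 0.5). The PU.1-IRF composite went from 8.01%, 7.73% and 6.73% to 5.70%, 5.66% and 5.44%, and SP/KLF from 2.39%, 2.11% and 4.29% to 0.933%, 1.18% and 1.70% (exact permutation p = 0.1 for each). The NF-kB share differed little, going from 3.83%, 3.27% and 5.15% to 3.94%, 3.73% and 5.22%, and these values overlapped (difference 0.211 points, exact permutation p = 0.7). The GC content of distal peaks, which bears on each of these shares, was 51.1% in media and 49.1% in LPSx2 libraries (exact permutation p = 0.1), and its part in them was not tested.

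**Figure D3:**
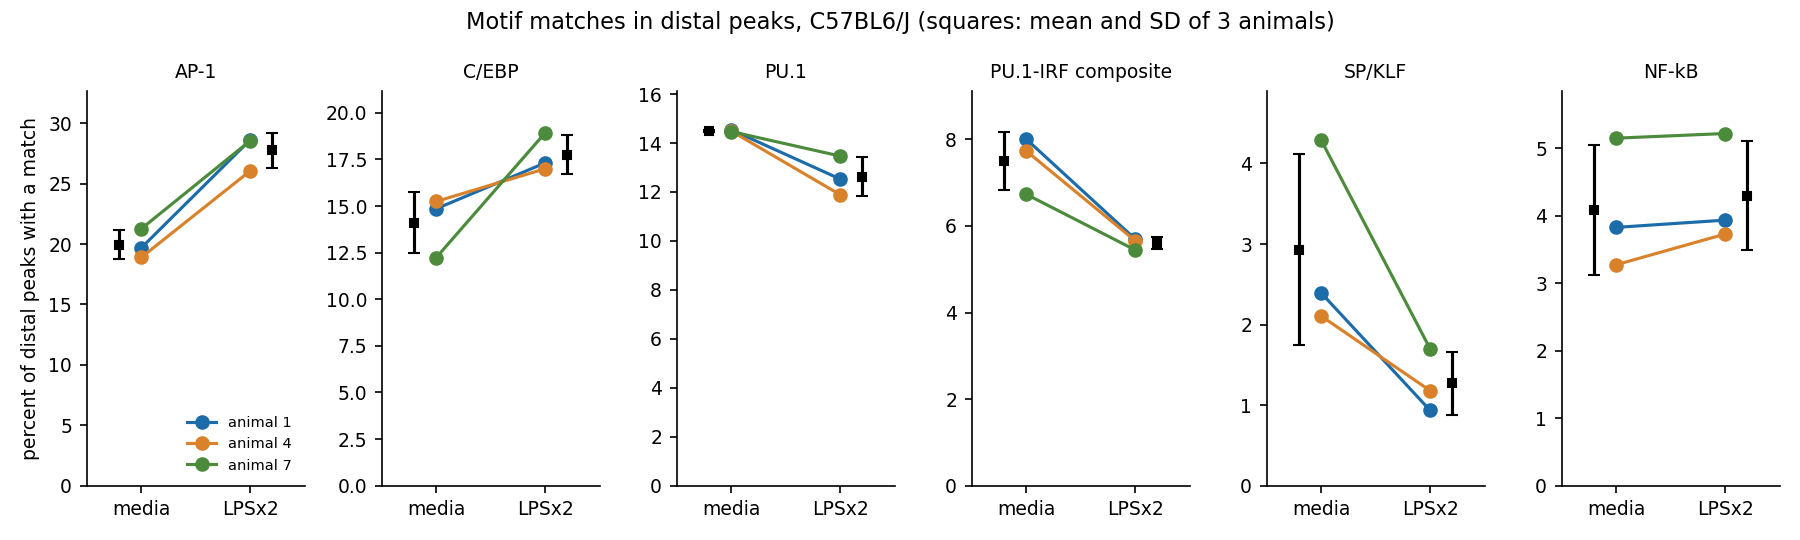
Percent of distal peaks with a motif match (y axis) in the media and LPSx2 library of each animal (lines) with the mean and SD of 3 animals (squares). AP-1 was higher with LPSx2 in each animal, between 26.1% and 28.6%, while NF-kB values overlapped.

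Fewer of the strongest LPSx2 peaks lay at promoters. The share of peaks within 1 kb of a start site was 52.1%, 44.9% and 65.1% in the media lists of animals 1, 4 and 7 and 34.9%, 32.6% and 45.5% in the LPSx2 lists. The share was lower in each of 3 animals, but the LPSx2 value of animal 7 lay above the media value of animal 4, and the means of 54.0% ± 10.3 and 37.7% ± 6.89 (SD, n = 3) gave an exact permutation p of 0.2. The share was higher in every class beyond 1 kb, from 14.0% to 16.9% at 1 to 10 kb, from 19.7% to 26.6% at 10 to 50 kb, from 6.27% to 9.35% at 50 to 100 kb and from 6.03% to 9.52% beyond 100 kb, as means of 3 libraries. The promoter share dropped with rank in both groups, from 70.1% to 52% and 40.0% over 3 equal rank groups in media and from 50.4% to 33.8% and 28.8% with LPSx2.

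**Figure D4:**
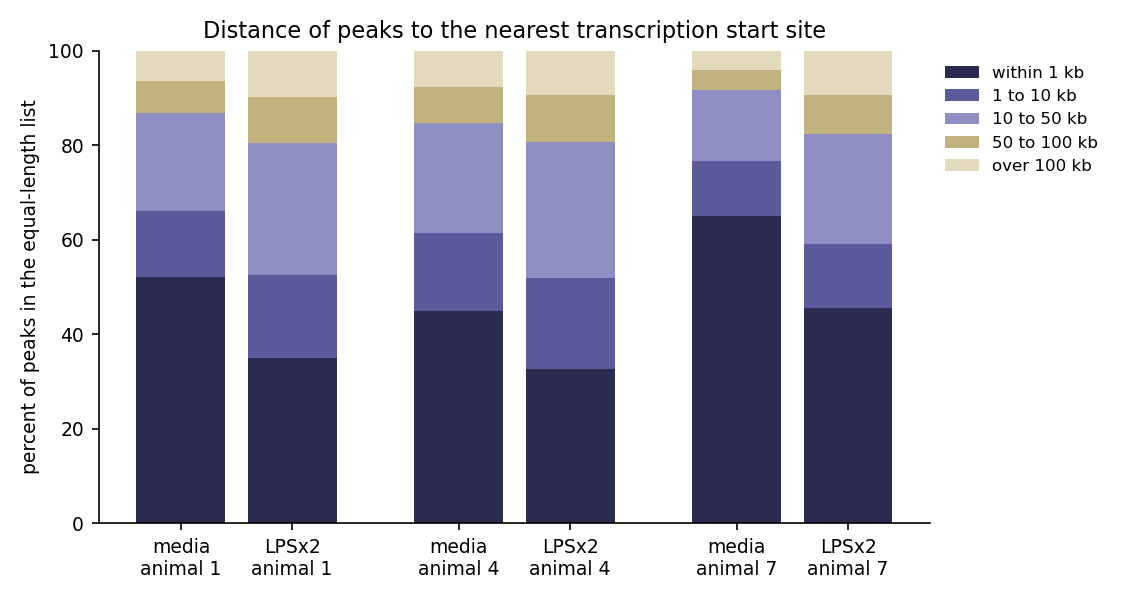
Stacked bars of the percent of peaks (y axis) by distance to the nearest protein-coding start site for the media and LPSx2 library of each animal (x axis). The part within 1 kb spanned 44.9% to 65.1% in media and 32.6% to 45.5% in LPSx2 libraries.

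Among the 4985 regions present in all 6 lists, ranks shifted along the same lines. Of 1934 distal shared regions, 669 ranked higher in the LPSx2 list of every animal and 265 lower, whereas of 3051 shared regions within 1 kb of a start site 458 ranked higher and 917 lower. Distal shared regions with an AP-1 match ranked higher in all animals in 234 of 491 cases and lower in 47, and those without in 435 and 218 of 1443. A region in a Pde4b intron (chr4:102574282-102574620) stood above 30.2%, 40.2% and 2.64% of peaks in the media lists of animals 1, 4 and 7 and above 96.6%, 98.3% and 89.0% in the LPSx2 lists. The Pax6 promoter, 26 bp from a start site of this eye and brain transcription factor gene, went from 25.8%, 20.8% and 30.2% to 86.1%, 88.5% and 93.0%. In the other direction, the promoter region of Zfp36l2, which encodes an RNA-binding protein that promotes decay of AU-rich transcripts, went from 93.7%, 97.4% and 98.5% to 29.7%, 52.1% and 20.5%. A distal region 10501 bp from Hsp90aa1, the gene of a stress-inducible chaperone, went from 73.8%, 89.9% and 79.9% to 3.14%, 43.9% and 6.33%.

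At the level of genes, each peak was assigned to the nearest protein-coding start site within 100 kb, and the number of peaks per gene was fitted with limma over the 22 kept libraries with sequencing lane as a term. Of the 9128 genes that averaged 0.5 peaks or more, 167 rose (1.83%) and 125 fell (1.37%), 3.2% in either direction, in LPSx2 against media at an adjusted p (Benjamini-Hochberg over all genes) under 0.05. The gene lists below hold few genes each, so beside these shares a count of 0 or 1 passing gene is unremarkable. With the animal as a block in place of the lane, 119 rose and 71 fell in limma. These calls were few beside the 836 and 863 genes past an unadjusted p of 0.05, and 0 genes rose or fell in limma when the lists kept their full length (391 past an unadjusted p of 0.05). Leaving out animal 1, 4 or 7, which also made the groups smaller, left 21, 11 or 26 genes that rose and 9, 8 or 5 that fell. Of the 292 genes called, 291, 283 and 286 kept their sign in these fits. The fits reuse libraries on which these genes were called, so the kept signs are no separate support for them. The part of group size in the lower numbers was not tested. With lists shortened within an animal in place of a lane, 0 genes rose or fell in limma (298 past an unadjusted p of 0.05).

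Genes that rose did so through distal peaks. Of the 167, 159 changed mostly away from their start site, by a mean of 2.19 distal peaks and 0.178 promoter peaks. Over all genes tested 3622 differed mostly in distal and 3234 mostly in promoter peaks, whether higher or lower. The mean differences over all genes tested were 0.205 distal and -0.197 promoter peaks, so the lists as a whole moved from promoter to distal peaks. Of the 125 that fell, 78 changed mostly at the promoter, by a mean of -1.15 promoter peaks and -0.779 distal peaks. The groups of 3 libraries did not overlap for 122 of the genes that rose and 75 of those that fell. Among all genes tested, 3.39% were higher and 2.71% lower without overlap. The calls were made on the same peak numbers, so this contrast is no separate support for them.

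The smallest p among genes that rose belonged to Otoa, a gene of the inner ear's matrix, with 1 peak in each media and 2 in each LPSx2 library. Its counts had no spread within a group, which gave a standard error of 0.0258 and a limma adjusted p of 1.58e-11 for a difference of a single peak. Cd38, which encodes an NAD-consuming ectoenzyme of activated leukocytes, had 0, 1 and 0 peaks in the media libraries of animals 1, 4 and 7 and 5, 5 and 3 in the LPSx2 libraries, a difference of 4.00 ± 0.571 (SE; limma adjusted p = 0.00563). Its groups did not overlap, and all of the change was distal. Papss1, which makes the sulfate donor of sulfation reactions, went from 2, 4 and 3 to 6, 8 and 7 peaks (4.00 ± 0.605, limma adjusted p = 0.00839). Zyx, the gene of the focal adhesion protein zyxin, and Serinc5, a gene of a membrane protein that restricts retroviruses, both went from 1, 2 and 2 to 4, 5 and 4. Vcan, the gene of the matrix proteoglycan versican, went from 1, 2 and 2 to 4, 4 and 4. Rims3 (0, 0 and 0 to 3, 4 and 4), Gja1, the gene of connexin 43 (0, 0 and 0 to 2, 3 and 2), Lrrc8c, a volume-regulated anion channel subunit gene (1, 2 and 1 to 4, 6 and 4), Dcun1d3, Gm10944 and the odorant receptor gene Olfr99 made up the rest of the 12 with the smallest p.

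A cyclic AMP phosphodiesterase gene rose among the genes with most peaks. Pde4b (chromosome 4, 102087543 to 102607259, plus strand), whose gained regions are printed above, had 4, 7 and 3 peaks in the media and 10, 14 and 9 in the LPSx2 libraries of animals 1, 4 and 7. Every LPSx2 library exceeded every media library, by a mean of 6.33 ± 1.04 (SE; limma adjusted p = 0.0123), and the 4 LPSx1 libraries held 12, 18, 9 and 8 peaks. Nr4a1, an immediate-early nuclear receptor gene of this list, fell from 3, 5 and 4 to 1, 2 and 2 (limma adjusted p = 0.0337). Of 26 measured genes of the list 1 rose and 1 fell, and the median difference was 0.167, against 0 over all genes tested.

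Tet2 (chromosome 3, 133463679 to 133545139, minus strand), the gene of a 5-methylcytosine oxidase known to restrain Il6 in macrophages, had 2, 6 and 2 peaks in media and 8, 15 and 11 in LPSx2 libraries, a difference of 8.00 ± 1.48 (SE; limma adjusted p = 0.0164). The groups did not overlap, and the difference was the largest among the genes that rose. Ncoa7, placed with it among 34 chromatin modifiers although its product is better known as a coactivator and an oxidation resistance protein, went from 0, 3 and 0 to 3, 10 and 6 (limma adjusted p = 0.0299), with the media value of animal 4 equal to the LPSx2 value of animal 1. The other 32 did not pass, 0 fell, and the median of the list was -0.5. Of the 34 values, 18 lay below 0 and 8 above, against 3661 and 3054 among the 9128 genes tested. At an unadjusted p under 0.05 in limma, 2 of the 34 were higher and 8 lower, against 836 and 863 of all genes tested. Tiparp, an ADP-ribosyltransferase gene induced by the aryl hydrocarbon receptor, went from 2, 3 and 1 to 6, 10 and 5 (limma adjusted p = 0.00839) without overlap, through 2.00 more promoter and 3.00 more distal peaks.

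**Figure D5:**
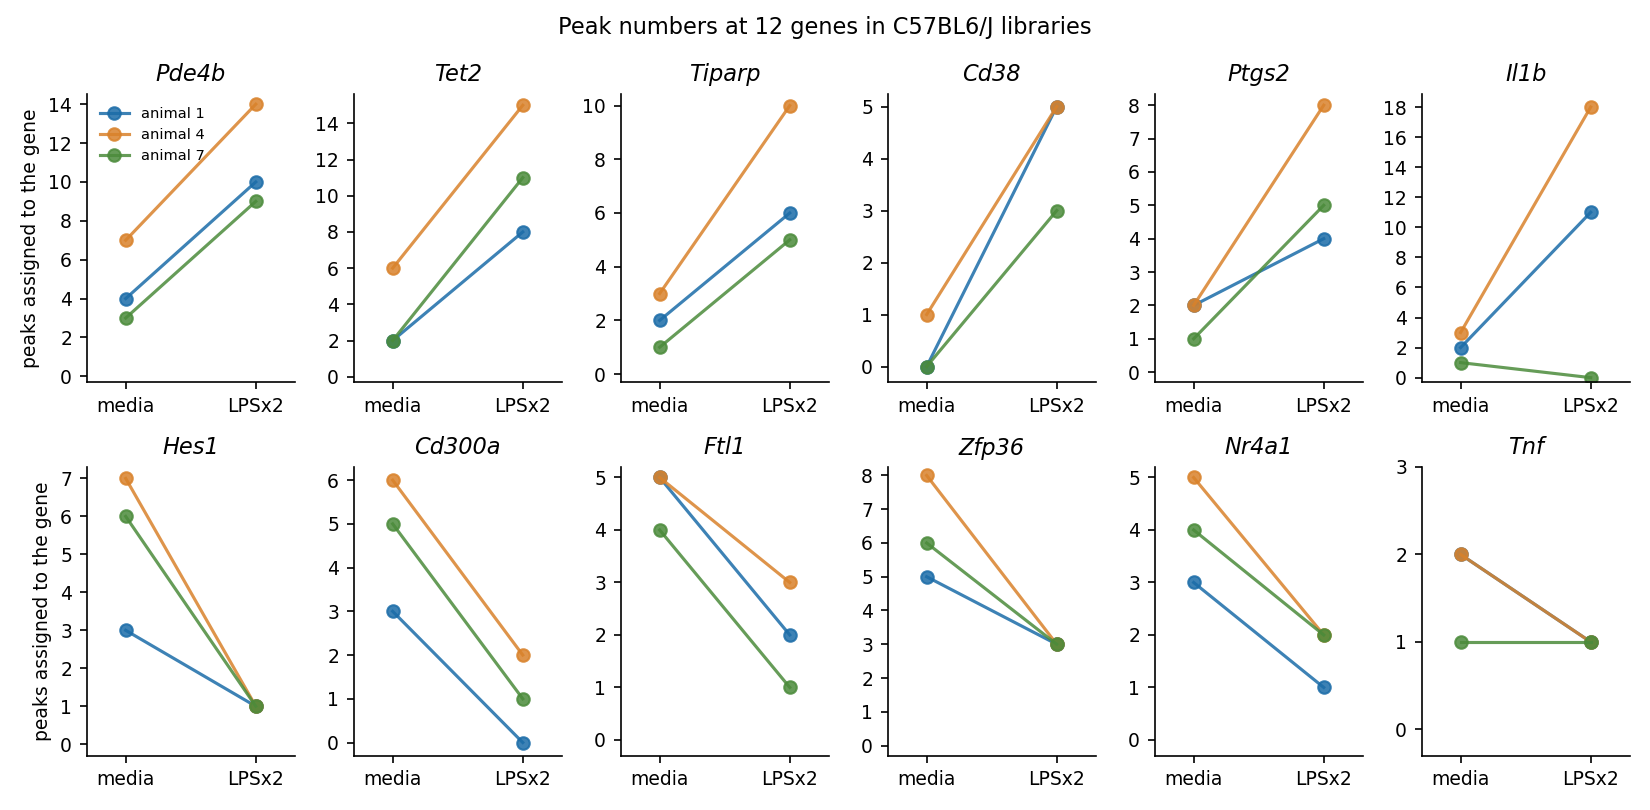
Number of peaks assigned to each of 12 genes (y axis) in the media and LPSx2 library of each animal (lines), from lists of equal length. Pde4b and Tet2 were higher in every LPSx2 than in every media library, while Il1b in animal 7 went from 1 to 0.

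Inflammatory mediators of the prostaglandin branch and an interleukin-12 subunit gene held more peaks. Ptgs2, the inducible cyclooxygenase gene (chromosome 1, 150100031 to 150108227, plus strand), went from 2, 2 and 1 to 4, 8 and 5 peaks in animals 1, 4 and 7 (4.00 ± 0.766, limma adjusted p = 0.0197). Ptges, the prostaglandin E synthase gene that acts after it, went from 0 in each media library to 2 in each LPSx2 library (limma adjusted p = 0.0288), and Il12a, the gene of the p35 subunit, from 0 in each to 2, 3 and 3 (limma adjusted p = 0.0214). None of these groups overlapped. Of 19 measured mediators 3 rose and 0 fell, with a median difference of 0.667 and 15 values above 0. At an unadjusted p under 0.05 in limma, 5 of the 19 were higher and 0 lower, against 836 and 863 of the 9128 genes tested.

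The classical cytokine genes did not pass. Tnf had 2, 2 and 1 peaks in media and 1, 1 and 1 in LPSx2 libraries, Il6 had 1, 1 and 0 and then 1, 3 and 0, and Il12b had 0, 1 and 0 and then 1, 1 and 2. Nos2, the inducible nitric oxide synthase gene, had 0, 1 and 0 and then 1, 2 and 0. Il1b (chromosome 2, 129364570 to 129371139, minus strand) had 2, 3 and 1 peaks in media and 11, 18 and 0 in LPSx2 libraries of animals 1, 4 and 7, a difference of 7.67 ± 2.6 (SE; limma adjusted p = 0.13). Animals 1 and 4 were far above their media libraries and animal 7 below, and the LPSx1 libraries followed the same order, with 11, 14, 1 and 3 peaks in animals 1, 4, 6 and 7. Animals 1 and 4 were the ones whose LPSx2 lists held many overlapping peaks before collapsing. Of their LPSx1 lists, 85.3% of peaks overlapped in animal 1 but 0.0323% in animal 4, whose list held 14 Il1b peaks. The part of such overlaps in these values was not tested.

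Counts of passing genes among sensors and regulators were too small to set apart from the 3.2% of all genes tested that passed in limma. Of 18 measured genes of the Tlr4 complex and its signalling 0 passed in limma (1 higher and 1 lower at an unadjusted p under 0.05), at a median of 0.333. Tlr4 itself had 4, 5 and 1 peaks in media and 6, 9 and 8 in LPSx2 libraries, without overlap (4.33 ± 1.24, limma adjusted p = 0.0779). Irak3, the gene of a kinase-dead inhibitor of this pathway linked to tolerance, had 1, 3 and 2 and then 3, 7 and 1 peaks and did not pass. Among 22 NF-kB subunits and feedback regulators only Zfp36, the gene of the mRNA decay factor tristetraprolin, passed, and it fell from 5, 8 and 6 to 3, 3 and 3 (-3.33 ± 0.835, limma adjusted p = 0.0484). Rela had 2, 3 and 2 and then 0, 1 and 0 peaks (limma adjusted p = 0.0623), and Tnfaip3, the A20 gene, 2, 6 and 3 and then 1, 5 and 0. At an unadjusted p under 0.05, 3 of the 22 were higher and 3 lower, and the median of the list was 0.167.

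A cathelicidin and a formyl peptide receptor gene rose among the antimicrobial genes. Camp, the gene of the cathelicidin peptide, went from 0 in each media to 1 in each LPSx2 library (limma adjusted p = 0.0129), and the formyl peptide receptor gene Fpr1 from 1, 1 and 0 to 3, 8 and 2 (3.67 ± 0.901, limma adjusted p = 0.0466). Of 15 measured members 2 rose and 0 fell, 14 values were above 0, against 3054 above and 3661 below among the 9128 genes tested, and the median was 1.00. At an unadjusted p under 0.05 in limma, 6 of these 15 were higher and 0 lower, against 836 and 863 of the 9128 genes tested. Fpr2, a neighbour of Fpr1, had 2, 2 and 2 and then 5, 9 and 2 peaks and did not pass. None of 10 chemokine genes passed in limma (3 higher and 0 lower at an unadjusted p under 0.05), at a median of 0.667. Cxcl1, a neutrophil attractant gene, had 0, 1 and 0 and then 3, 4 and 1 peaks (limma adjusted p = 0.0928). Of 19 interferon-stimulated genes Gbp5, an inflammasome-promoting GTPase gene, rose from 0, 2 and 0 to 3, 4 and 3 (limma adjusted p = 0.0484), 0 fell and the median was 0.667. At an unadjusted p under 0.05 in limma, 8 of the 19 were higher and 1 lower, against 836 and 863 of the 9128 genes tested. Cxcl10 had 0, 0 and 0 and then 0, 1 and 2 peaks. Lcn2, also listed, was not tested because its mean lay below 0.5 peaks.

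The AP-1, ATF and related bZIP genes gave too few calls to set apart from the 1.83% of all genes tested that rose and the 1.37% that fell. Of 17 AP-1, ATF and related bZIP genes 0 rose, Jund fell from 3, 2 and 3 to 0, 0 and 1 (-2.33 ± 0.494, limma adjusted p = 0.0279), 11 values were below 0, against 3661 of the 9128 genes tested, and the median was -1.0. At an unadjusted p under 0.05, 0 were higher and 5 lower. Maff had 1, 3 and 3 and then 0, 0 and 0 peaks (limma adjusted p = 0.059). None of 16 IRF, STAT and SOCS genes passed in limma (2 higher and 1 lower at an unadjusted p under 0.05; median -0.167), and none of 27 macrophage lineage factors (1 and 1; median 0). Cebpb, the C/EBP gene most tied to inflammatory induction, had 6, 9 and 6 peaks in media and 12, 22 and 4 in LPSx2 libraries of animals 1, 4 and 7 (5.67 ± 2.62, limma adjusted p = 0.264), again with animal 7 apart. Spi1 had 1, 3 and 0 and then 1, 5 and 1.

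Metabolic genes split in both directions. Arg1, the arginase of alternative activation, rose from 1, 4 and 2 to 5, 8 and 3 (3.00 ± 0.74, limma adjusted p = 0.0468), with overlap between the groups, and was the only one of 10 measured alternative activation genes to pass. Of 23 cholesterol and lipid genes Sqle, the squalene epoxidase gene, rose from 1 in each to 2, 3 and 2 (limma adjusted p = 0.0129), while Fasn, the fatty acid synthase gene, fell from 1, 2 and 2 to 0 in each (limma adjusted p = 0.0466) and Srebf1, the gene of the factor that drives it, fell from 1, 3 and 2 to 0, 1 and 0 (limma adjusted p = 0.0484). Of 19 oxidative stress genes the glutaredoxin gene Glrx rose from 5, 10 and 4 to 11, 13 and 8 (limma adjusted p = 0.0214) and the autophagy receptor gene Sqstm1 fell from 3 in each to 0, 2 and 0 (limma adjusted p = 0.0388), with a difference of 0.333 in the other direction at full list length. Of 25 glycolysis and hypoxia genes Pdk1 fell from 2, 3 and 2 to 1, 2 and 1 (limma adjusted p = 0.0273); Pfkfb3, the gene of a glycolytic activator, had 4, 8 and 6 and then 10, 18 and 9 peaks without overlap (limma adjusted p = 0.0612). The medians of these 4 lists were 0.833, -0.333, -0.333 and 0.

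Among genes that fell, Hes1 showed the largest difference of the 12 with the smallest p. Hes1 (chromosome 16, 30064384 to 30067796, plus strand), a repressor induced by Notch, had 3, 7 and 6 peaks in media and 1, 1 and 1 in LPSx2 libraries of animals 1, 4 and 7 (-4.33 ± 0.727, limma adjusted p = 0.0125), and it was the only one of 14 Notch pathway genes to pass, at a list median of 0.167. Atp6v0c, a proton channel subunit gene of the lysosomal V-ATPase, fell from 2, 5 and 3 to 0, 2 and 0 (-2.67 ± 0.356, limma adjusted p = 0.00355), and the ferritin light chain gene Ftl1 from 5, 5 and 4 to 2, 3 and 1 (limma adjusted p = 0.0121). Cd300a, an inhibitory receptor gene, fell from 3, 6 and 5 to 0, 2 and 1, and Vav1, a guanine nucleotide exchange factor gene of leukocytes, from 4, 6 and 3 to 1, 3 and 0. Larp4 (1, 2 and 2 to 0 in each), Bclaf1 (2, 2 and 3 to 1 in each) and Tcf25 (2 in each to 0, 1 and 0) fell at the promoter alone. Ctbp2, a corepressor gene, fell by 2.00 in each animal, from 3, 6 and 4 to 1, 4 and 2, although its groups overlapped and its difference was 1.33 in the other direction at full list length. Soga1 and Zfyve28 were also among the 12.

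Among genes of macrophage identity 0 rose and 2 fell, where 1.83% of all genes tested rose and 1.37% fell. Of 26 measured identity genes 0 rose and Cd300a and Lgals3, the galectin-3 gene (3, 6 and 3 to 1, 2 and 1; limma adjusted p = 0.0371), fell, with 18 values below 0, against 3661 of the 9128 genes tested, and a median of -0.667. At an unadjusted p under 0.05 in limma, 0 of the 26 were higher and 7 lower, against 836 and 863 of the 9128 genes tested. Csf1r, the receptor gene for the growth factor of these cells, had 4, 8 and 3 and then 5, 8 and 1 peaks (4.00 more with LPSx2 at full list length), and Marco, a scavenger receptor gene, 1, 2 and 0 and then 1, 3 and 1.

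The labelled cell type was checked against its markers. Of 27 identity genes 26 had a peak in at least 1 of the 6 libraries, and Aif1 was at 0 in all. Many markers of other cell types were also at 0 in all 6 libraries. Of B-cell markers 11 of 12 were at 0, including Cd79a and Cd79b. Of neutrophil markers 9 of 12 were, including Ly6g, Elane and Mpo. Of the 15 annotated T-cell and NK-cell markers 8 were, including Cd3e and Cd8a, as were 7 of 10 erythroid and 8 of 14 stromal markers. Among dendritic-cell markers, many of which macrophages also use, Cd209a and Siglech of 12 were at 0. Even without a filter on peak number, only 13768 of the 21951 protein-coding genes entered the limma fit. The share of all genes at 0 in these 6 libraries was not computed. The marker counts at 0 therefore had no background, and their bearing on cell type was not tested. Summed over T-cell and NK-cell markers, a library held 2 to 9 peaks in media and 3 to 7 with LPSx2; the sums ran from 1 to 2 and 1 to 4 for neutrophil markers, from 4 to 13 and 5 to 9 for dendritic-cell markers, from 2 to 5 and 0 to 4 for erythroid markers and from 1 to 4 and 2 to 8 for stromal markers, and were 2 in each for B-cell markers. No marker of these lists passed in limma, although 3 were higher and 2 lower at an unadjusted p under 0.05.

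The response to LPSx2 was set against that of BTBR macrophages, the strain with which the series compares C57BL6/J. For genes, the strain by treatment term of the limma fit passed for 1 of 9128 genes, and 325 and 278 genes lay past an unadjusted p of 0.05 in each direction. That gene was Gpr176, an orphan receptor gene, with 1 peak in every C57BL6/J library and, in BTBR, 0 in each media and 1 in each LPSx2 library (-1.0, limma adjusted p = 3.40e-11), again counts without spread. The BTBR contrast itself called 15 genes that rose and 8 that fell. Over all genes tested, 4107 had differences in the same direction in both strains and 1350 in opposite directions. Of the 167 genes that rose in C57BL6/J, 142 had a BTBR difference in the same direction and 13 in the other, with a BTBR median of 0.75 against 2.33 in C57BL6/J, the strain in which they were chosen. Of the 125 that fell, 109 went the same way in BTBR and 4 the other.

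For motif shares, the change in C57BL6/J exceeded that in BTBR for AP-1 and C/EBP and stood below it for NF-kB, each without overlap between animals. The AP-1 share of distal peaks was higher with LPSx2 by 7.81 points on average in 3 C57BL6/J animals (7.18 to 8.96) and by 4.87 in 4 BTBR animals (4.39 to 5.50). The C/EBP share changed by 3.64 (1.76 to 6.70) and 0.167 points (-1.46 to 0.905), and the NF-kB share by 0.211 (0.069 to 0.456) and 1.76 points (1.41 to 2.48). Each gave p = 0.0286 in a two-sided exact permutation test over 35 splits of the animals, the smallest possible, and 0.133 after adjustment over 14 measures, so none passed. The promoter share changed by -16.4 and -8.82 points, with overlap (exact permutation p = 0.229).

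No gene passed between LPSx2 and LPSx1. In the limma contrast of LPSx2 with LPSx1 in C57BL6/J 0 of 9128 genes passed (smallest adjusted p 0.435), with 156 and 171 past an unadjusted p of 0.05. LPSx1 against media, which shares the media libraries, called 130 genes that rose and 88 that fell, and LPSx1 libraries had an AP-1 share of 28.5% ± 1.61 (SD, n = 4) and a promoter share of 41.0% ± 7.05 (SD, n = 4).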

How the data were processed

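ATAC-seq libraries were deposited as peak lists, 1 per library. Per the labels' design text, the authors limited reads to nucleosome-free fragments and called peaks per biological replicate. Per the submitters' processing notes, Trimmomatic 0.38, SAMtools 1.8, Picard 2.18.4, HOMER and bedtools were used with mm10; the aligner is not given in the sources used here. The deposited score of each peak, as the authors gave it, has no stated scale and served only for ordering the peaks of 1 library. Read depth was not given, so no counting intervals were made.

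Overlapping peaks were collapsed to the highest score, lists under 5000 peaks were left out, and lists of a lane were shortened to 1 length by score, with ties broken by a seeded hash of position. A region was held by a list at an overlap of 1 bp. Promoters were within 1 kb of a protein-coding start site (21951 genes, mm10 annotation), and other peaks were distal. Motifs (13) were searched in the 201 bp peaks on both strands: AP-1 TGAGTCA, CRE TGACGTCA, PU.1 GAGGAAGT, C/EBP TTGCNNAA, STAT TTCCNGGAA, SP/KLF GGGGCGGGG, RUNX TGTGGTTT, MiT/TFE TCACGTGA, and the NF-kB, interferon-stimulated response element, PU.1-IRF composite, antioxidant response element and CTCF motifs. A match is a description of the sequence.

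Peak numbers per gene (nearest start site within 100 kb, mean of at least 0.5) were fitted with limma 3.58.1 (trend, robust, lane as a term, 13 residual degrees of freedom). Media and LPSx2 libraries of 1 replicate number come from 1 animal, as taken from the labels. Residuals of a fit on group alone, without lane, correlated at 0.259, 0.553 and 0.308 for animals 1, 4 and 7 (-0.432 to 0.275 between animals). Each lane held 1 C57BL6/J animal and set the list length, so these values cannot tell animal from lane. The fit with the animal as a block is printed beside the counts of genes. Shares were compared with two-sided exact permutation tests. In simulated data for 9021 genes, 8% of 100 genes changed 2-fold and 42% of 100 changed 3-fold were recovered and 8 unchanged genes were called. Named genes were the 12 with the smallest p that passed and moved alike in all animals, in each direction, list members that passed (up to 6 a list) and the 2 next, and 20 fixed genes. A few genes and 1 region that the rules would name are not reported here. The members, lists and tests were chosen with earlier results of these data known. Python 3.11.15, numpy 2.4.6, pandas 2.3.3, scipy 1.17.1, matplotlib 3.10.9, R 4.3.3 and the data.table package (1.17.8) were used.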

Additional observations from a re-analysis of the deposited data

Results flagged for a closer look

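Both libraries of animal 6 stood apart from the others of their group in the number of peaks. On the log2 scale the media list of animal 6 held 8.22 and its gap to the next list took up 0.831 of the range of the 4 media lists, above the 95% critical value of Dixon's test for 4 values. Its LPSx2 list held 10.9, with a gap of 0.912 of the range. Among BTBR LPSx2 libraries, 1 library had a low share of distal peaks with a STAT match, 0.618%, with a gap of 0.86 of the range. In all, 44 groups of values were examined in this way, and chance marks about 1 in 20.

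The left-out LPSx2 list of animal 6 placed 45 of its 1877 collapsed peaks in gained regions and 1383 in regions shared by all 6 lists, in data that entered no comparison. Its media list, with 299 peaks, placed 0 and 129.

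Gpr176 was the gene whose response differed between the strains by the interaction term (C57BL6/J minus BTBR -1.0, limma adjusted p = 3.40e-11). All 3 C57BL6/J media and all 3 LPSx2 libraries held 1 peak, while BTBR held 0 in each of 4 media and 1 in each of 4 LPSx2 libraries.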

How the results depend on the processing

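The number of genes that passed in limma depended on how the lists were shortened and was lower without animal 1, 4 or 7, and the causes were not tested. Genes that rose and fell (167 and 125) became 404 and 510 with overlapping peaks kept, 0 and 0 at full list length, 9 and 0 with lists as deposited, 270 and 163 with all lists at the shortest length, 0 and 0 with lists shortened within an animal, and 117 and 59 with the stronger 50% of each list. They became 30 and 6 without the lane term, 91 and 104 with peaks within 25 kb, 363 and 59 with distal peaks alone, 124 and 70 at a mean of at least 1 peak and 163 and 191 without a filter. With the replicate block (animal) they were 119 and 71, and with the block in the 6 media and LPSx2 libraries alone 212 and 340. Of alternatives chosen after seeing the data, lists shortened within an animal with the replicate block gave 14 and 14, and the square-root scale gave 171 and 93. Leaving out 1 animal gave 11 to 26 genes that rose and 5 to 9 that fell. Of the 292 genes, 258 kept their sign at full length and 257 as deposited, in the same libraries on which they were called. Of 44 named genes that passed, 37 did so with the replicate block, 13 without the lane term, 0 at full length, and 14, 9 and 12 without animals 1, 4 and 7.

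The interaction term passed for 3 genes with the replicate block and for 1 to 8 when 1 animal of either strain was left out, and LPSx2 against LPSx1 for 0 with the block and 0 to 3 without 1 animal; both sets were added after seeing the data. Regions gained and lost (1035 and 716) were 5140 and 162 as deposited, 5145 and 163 at full length, 528 and 422 in the stronger 50% and, without 1 animal, 1879 to 2106 and 1515 to 2122, since fewer lists then had to hold them. Without 1 animal the promoter share differed by -18.4 to -14.8 points, AP-1 by 7.24 to 8.13, C/EBP by 2.11 to 4.58 and PU.1 by -2.31 to -1.51, and the log2 peak number by 0.957 to 1.79. Small motif differences changed sign: NF-kB (0.211) was -0.0075 at the shortest length and -0.35 in the stronger 50%, STAT (0.0259) was -0.0658 as deposited, and CTCF (-0.0268) was 0.259 as deposited and, without 1 animal, -0.068 to 0.0133.

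Differences in peak number per gene also changed sign, mostly at full length or as deposited, where LPSx2 lists are longer. At full length, Ctbp2 was 1.33, Sqstm1 0.333, Mef2a 1.67, Cd163 0.667, Kmt2c 0.333, Dnmt1 1.67, Adam10 1.33, Nr1h2 0.333, Abcg1 1.00, Klrb1c 4.33, Tal1 0.333, Tnfaip3 4.33 and Csf1r 4.00. As deposited, Ctbp2 was 1.67, Sqstm1 0.667, Traf3 0.667, Bst2 0.333, Atf4 0.333, Mef2a 1.33, Ctsd 1.67, Cd163 1.00, Dnmt1 2.67, Adam10 1.33, Nr1h2 0.333, Abcg1 1.00, Klrb1c 6.00, Tal1 0.667, Tnfaip3 5.67 and Csf1r 6.67. Traf3 was 0.333 with distal peaks alone, Mmp9 -0.333 in the stronger 50%, and Csf1r -1.0 to 0.5 without 1 animal (0.5 without animal 7). With lists shortened within an animal, with and without the replicate block, Klrb1c was 0.333 and Spi1 -0.333. Over all alternatives the 44 named genes that passed gave 402 values on the same side of the threshold, 396 that no longer passed and 4 of the other sign.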

Other observations

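Most genes nearest to a gained or a lost region had 1 region of that kind. Within 100 kb, 750 genes were nearest to at least 1 gained region, 81 to at least 2 and 9 to 3 or more, and 664 genes were nearest to at least 1 lost region, 23 to at least 2. Both kinds were found at 31 genes. The numbers that regions placed without regard to each other would give were not computed, so these counts have no background. Besides Pde4b, Tet2, Cd38, Papss1 and Tiparp, the genes with 3 gained regions were Adh5, Sgms1, Slc6a5 and Tma16. Slc6a5, the gene of a neuronal glycine transporter, went from 0 peaks in each media library to 3 in each LPSx2 library (limma adjusted p = 0.035), and these 3 were all of its regions. Tma16 went from 1, 5 and 2 to 7, 8 and 6 (limma adjusted p = 0.0208). Adh5, whose product breaks down formaldehyde and S-nitrosoglutathione, had 1, 1 and 2 and then 5, 4 and 5 peaks without overlap (limma adjusted p = 0.0599), and Sgms1, a sphingomyelin synthase gene, had 5, 13 and 5 and then 8, 18 and 6 (limma adjusted p = 0.325).

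Genes outside the naming rule with large differences, picked after their values were seen, were Ppm1h, Brd2 and Elmo1. Ppm1h, a phosphatase gene, rose from 3, 4 and 2 to 7, 17 and 8 peaks in animals 1, 4 and 7 (7.67 ± 1.43, SE, limma adjusted p = 0.0169). Brd2, the gene of a bromodomain protein that reads acetylated histones, fell from 4, 7 and 5 to 0, 2 and 0 (-4.67 ± 1.04, SE, limma adjusted p = 0.0337). Elmo1, a gene of the engulfment machinery that activates Rac, fell from 5, 13 and 4 to 2, 5 and 1 (-4.67 ± 1.08, SE, limma adjusted p = 0.0381), with the LPSx2 value of animal 4 above the media value of animal 7.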
